A study of Caenorhabditis elegans with 4 samples.

Results

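The genes described here are 10 cuticle collagens of Caenorhabditis elegans that are named after the body shape of their mutants: dpy-4, dpy-5, dpy-13 and dpy-17 (dumpy), rol-6 and rol-8 (roller), sqt-1 and sqt-3 (squat), and bli-1 and bli-2 (blister). They were taken by gene symbol from the annotation of the array platform, as the probes with exactly 1 gene symbol that is one of these names. All 10 were found, out of 14958 named genes, through 12 probes. Each of dpy-4 and sqt-3 had a pair of probes, which were averaged on each array. All 10 had a value on all 4 arrays. The furrow collagens, named here as a comparison, had 5 tested members and the numbered collagens 134.

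The samples were 4 preps of mRNA from adults of the mutant glp-4, numbered 1 to 4, each hybridised on an array of its own together with RNA labelled as a wild-type mixed reference. When raised in the heat, worms with the temperature-sensitive glp-4 mutation grow up almost without a germ line, but form a body and an adult cuticle. The labels used here state neither the allele, the temperature, the age and number of the adults nor the make-up of the reference. Nor do they say whether the preps were separate cultures, and the spread behind each p-value may therefore be technical. Values are log2 ratios between both channels. Their likely direction is glp-4 adults over reference, because each array is described that way and the adult RNA is listed as channel 2. The dyes are not named, so the direction is called likely only. It was not chosen from the values, and in it the germ line markers given below were lower. The ratios are relative to the other transcripts on the array, and in whole worms fewer cells of a type and less RNA per cell cannot be told apart. All 4 samples are glp-4 adults, and there is no sample of wild-type adults. Effects of the mutation, of a reduced germ line and of the adult stage therefore cannot be told apart either.

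The cuticle of C. elegans is an extracellular coat made mostly of small collagens, secreted by the epidermis and renewed at each moult. Collagen chains carry repeats of glycine and other residues, pair into triple helices in the endoplasmic reticulum, are cut by proteases and are cross-linked outside the cell. Different collagens build different structures: furrow collagens line the circular furrows, other collagens form the annuli between them, and BLI-1 and BLI-2 form the struts that join the inner and outer layers of the adult cuticle. Loss of single collagens can shorten the worm, twist it so that it rolls, or let the layers of the cuticle separate into blisters.

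The labels were compared with marker genes. Their lists were chosen with earlier results of these data known, so this is not an independent check. All 9 germ line markers tested were lower in glp-4 adults, with a median log2 ratio of -3.08, and both adult epidermis markers, col-7 and col-19, were higher, with a median of 4.17. All 6 intestine markers and all 4 body wall muscle markers were higher too, with medians of 2.52 and 1.10, although 1 muscle marker passed without prep 1 and 2 passed without prep 2 or prep 3. Unlike col-7 and col-19, the epidermis markers other than collagens went the other way. Their median over 16 genes was -0.94, where 12 passed below 0 and the remaining 4 did not pass. For comparison with all these counts, 17.0% of all features tested were higher and 20.9% lower. The epidermis markers thus gave no single direction, and the amount of epidermis in the samples was not tested. The arrays had medians between -0.07 and 0.08 over all spots, and the log2 ratios of all features correlated between arrays with Pearson's r of 0.727 to 0.796 (across genes, not replicates).

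The 10 collagens went in both directions: both strut collagens and dpy-4 were higher in glp-4 adults, both roller collagens and dpy-17 were lower, and the other 4 did not pass the test. The strut collagen bli-2 lay at one end, with a log2 ratio of 2.64 ± 0.76 (6.24-fold higher, SD, n = 4 preps). At the other end were dpy-17 at -2.72 ± 0.59 (6.60-fold lower) and rol-8 at -2.61 ± 0.57 (6.12-fold lower). In limma, with Benjamini-Hochberg adjustment over all 19981 features tested, 6 of the 10 passed an adjusted p of 0.05, 3 of them higher and 3 lower. Of all features, 37.9% passed: 17.0% were higher in glp-4 adults and 20.9% lower. At least 2-fold differences were reached by 2 of the higher and all 3 of the lower collagens, against 7.83% and 10.8% of all features. A ratio of the same sign on all 4 arrays was found for 5 of the 10, namely bli-1, bli-2, rol-6, rol-8 and dpy-17, while 55.5% of all features had the same sign on every array that measured them, which were 3 for some. The median of the 10 means was 0.27, against 0.00 for all features tested, and describes few of the genes, because they ranged from -2.72 to 2.64.

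**Figure D1:**
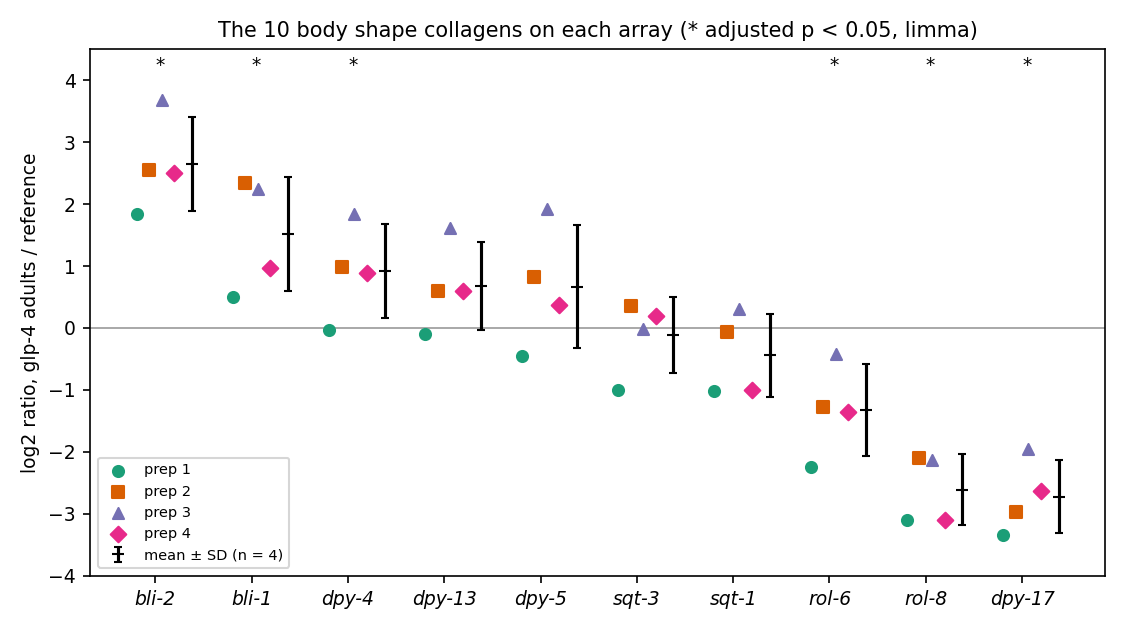
Log2 ratio (glp-4 adults over reference, vertical axis) of each of the 10 collagens, ordered by their mean; each symbol is 1 prep, and the bars are the mean and SD of the 4 preps. Both bli genes lie above 0 and rol-6, rol-8 and dpy-17 below 0 on all 4 arrays, and the symbol of prep 1 is the lowest for every gene, shared with prep 4 for rol-8.

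BLI-1 and BLI-2 are needed for the struts of the adult cuticle, and without either the layers separate. The ratio of bli-2 (F59E12.12) was 1.84, 2.55, 3.68 and 2.50 on preps 1 to 4. That of bli-1 (C09G5.6) was 0.50, 2.35, 2.25 and 0.97. Both genes were above 0 on all 4 arrays, highest and second highest of the 10 collagens on each of them. The mean of bli-1 was 1.52 ± 0.92 (2.86-fold higher, adjusted p = 0.0115 in limma), and the adjusted p of bli-2 was 0.000722. The ratio of bli-2 exceeded that of bli-1 on all 4 arrays, by 1.35, 0.20, 1.43 and 1.53, a mean of 1.13 ± 0.62. An exact two-sided permutation of the signs over 4 preps gave p = 0.125, the smallest it can give, for this pair, so such a test cannot reach the threshold. For bli-1, preps 2 and 3 were far above preps 1 and 4. From preps 1 and 2 alone bli-1 did not pass (mean 1.42, adjusted p = 0.120 in limma), while it passed from preps 3 and 4 alone (mean 1.61, adjusted p = 0.0365).

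Outside the 10 collagens, the named genes closest to bli-2 over the 4 arrays, by the root mean square difference of the log2 ratio, were C26G2.2, at 0.27, and the numbered collagens col-49 and col-63, at 0.33 each. The ratios of col-49 were 1.36, 2.89, 3.41 and 2.43 on preps 1 to 4, and those of col-63 were 1.99, 3.15, 3.89 and 2.61. These genes were chosen by their likeness to bli-2 on the same arrays.

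Mutations of rol-6 and rol-8 make the worm turn around its long axis as it crawls, and a dominant rol-6 allele is a widely used marker of transgenic worms. On preps 1 to 4, rol-8 (ZK1290.3) had log2 ratios of -3.11, -2.11, -2.13 and -3.11. The values fell into a higher pair, preps 2 and 3, and a lower pair, preps 1 and 4, which were equal as deposited. Those of rol-6 (T01B7.7) were -2.24, -1.27, -0.43 and -1.35. Both genes were below 0 on all 4 arrays, with means of -2.61 ± 0.57 for rol-8 (adjusted p = 0.000355 in limma) and -1.33 ± 0.74 for rol-6 (2.51-fold lower, adjusted p = 0.00985). The ratio of rol-6 was above that of rol-8 on every array, by 0.86, 0.84, 1.70 and 1.75 (mean 1.29 ± 0.51, exact permutation p = 0.125, n = 4). From preps 3 and 4 alone rol-6 did not pass (mean -0.89, adjusted p = 0.0881), and from preps 1 and 2 alone its mean was -1.76 (adjusted p = 0.0360).

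SQT-1 is known from genetics to act together with ROL-6, and alleles of sqt-1 can give rolling or dumpy worms. The log2 ratio of sqt-1 (B0491.2) was -1.02, -0.06, 0.31 and -1.01 on preps 1 to 4. Its sign differed between the preps, and its mean of -0.44 ± 0.68 did not pass (adjusted p = 0.213 in limma; 95% confidence interval -1.06 to 0.17). Relative to rol-6, its ratio was higher on each array, by 1.22, 1.21, 0.74 and 0.35 (mean 0.88 ± 0.42, exact permutation p = 0.125, n = 4).

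SQT-3 and DPY-17 are linked in their biology: the secretion of each depends on the other, and the astacin protease DPY-31 cuts SQT-3. Their ratios lay far apart here. On preps 1 to 4, dpy-17 (F54D8.1) had -3.34, -2.98, -1.95 and -2.63, below 0 throughout (adjusted p = 0.000327 in limma). For sqt-3 (F23H12.4) the mean of both probes was -1.01, 0.36, -0.02 and 0.20, with 2 preps on either side of 0, and the gene did not pass (-0.12 ± 0.61, adjusted p = 0.723; 95% confidence interval -0.69 to 0.46). The ratio of sqt-3 exceeded that of dpy-17 by 2.33, 3.34, 1.93 and 2.82 (mean 2.61 ± 0.61, exact permutation p = 0.125, n = 4). The protease gene dpy-31 had a log2 ratio of 0.27 ± 0.20 and did not pass.

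The mean of sqt-3 hides a disagreement between its probes. Probe 1 of sqt-3 had -0.49, 0.49, 0.63 and 0.92 on preps 1 to 4, and probe 2 had -1.52, 0.23, -0.67 and -0.53. The first gave a mean of 0.39 ± 0.61 and the second one of -0.62 ± 0.72, and neither passed on its own (adjusted p = 0.246 and 0.112 in limma). Probe 1 was above probe 2 on every array, by 1.01 ± 0.53 on average. Among the 1406 named genes with exactly 2 probes, 90.8% had a smaller mean difference between their probes, and the median size was 0.28. The stretch of the gene that each probe covers was not among the data used here, so the direction of sqt-3 is unsettled.

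Both probes of dpy-4 lay close together, with a mean difference of 0.05 ± 0.17. The averaged log2 ratio of dpy-4 (Y41E3.2) was -0.03, 0.98, 1.83 and 0.89 on preps 1 to 4. Preps 2 to 4 were above 0 and prep 1 was at 0 within the difference between the probes. The mean of 0.92 ± 0.76 (1.89-fold higher) passed narrowly (adjusted p = 0.0408 in limma), and it did not pass without prep 2 (mean 0.90, adjusted p = 0.109), without prep 3 (0.61, 0.120) or without prep 4 (0.93, 0.101). Taken singly, probe 1 passed (adjusted p = 0.0322) and probe 2 did not (0.0545).

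**Figure D2:**
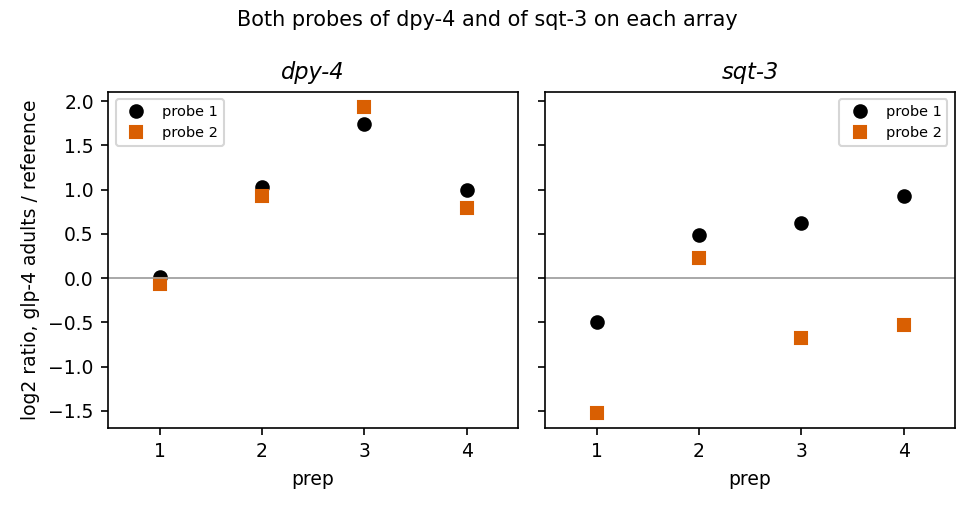
Log2 ratio (glp-4 adults over reference) of both probes of dpy-4 (left) and of sqt-3 (right) on the array of each prep. The probes of dpy-4 differ by at most 0.20, while probe 1 of sqt-3 lies above probe 2 on every array, by 0.26 to 1.45.

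Loss of dpy-5 or dpy-13 function shortens the worm, and DPY-13 is a collagen of the annuli. The log2 ratio of dpy-5 (F27C1.8) was -0.46, 0.82, 1.93 and 0.37 on preps 1 to 4, and that of dpy-13 (F30B5.1) was -0.10, 0.60, 1.62 and 0.60. Prep 1 was below 0 and the other preps above it for both genes. Neither passed, with means of 0.66 ± 0.99 (adjusted p = 0.176 in limma) and 0.68 ± 0.71 (adjusted p = 0.0854). Without prep 1, dpy-13 passed (mean 0.94, adjusted p = 0.0391). Array by array, dpy-5 minus dpy-13 was -0.36, 0.22, 0.31 and -0.23, a mean of -0.02 ± 0.33 with no constant sign (exact permutation p = 0.875, n = 4). This SD was smaller than the SD over preps of either gene. The same held for bli-2 and bli-1, for rol-6 and rol-8, and for sqt-1 and rol-6, but not for sqt-3 and dpy-17. With Benjamini-Hochberg adjustment over the 5 pairs compared (bli-2 and bli-1, rol-6 and rol-8, sqt-1 and rol-6, sqt-3 and dpy-17, dpy-5 and dpy-13), the first 4 had an adjusted p of 0.156.

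A named gene whose values lay close to dpy-17 on all 4 arrays was pes-2.2, with a root mean square difference of 0.16. It was followed by wdr-5.3, at 0.23, and T21B10.4, at 0.31. The ratios of pes-2.2 were -3.28, -3.24, -1.82 and -2.52 on preps 1 to 4. No collagen was among these 3 genes, which were chosen by their likeness to dpy-17 on the same arrays.

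The order of the 10 collagens was nearly constant from array to array. First was bli-2 and second bli-1 on all 4 arrays, rol-6 was in place 8 on all 4, and dpy-17 and rol-8 shared places 9 and 10. Across these 10 genes, the ratios of 2 preps had Pearson's r of 0.952 to 0.980 and Spearman's rho of 0.939 to 0.988. These values describe 10 genes on arrays that share a reference. The middle of the order was less settled: dpy-4, dpy-5 and dpy-13 traded places 3 to 5, and sqt-1 and sqt-3 traded places 6 and 7. In these groups neighbouring means differed by less than the SD of each gene over the preps.

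Laid over this order was a shift of the group between preps, clearest on preps 1 and 3. The median of the 10 collagens was -0.73, 0.48, 0.96 and 0.28 on preps 1 to 4, while the median of all features with 4 values lay between -0.07 and 0.08. Prep 1 was the lowest array for 9 of the 10 genes and tied with prep 4 for rol-8, against 23.6% of all features lowest on prep 1. On prep 3, 7 of the 10 were highest (25.8% of all features), and bli-1, rol-8 and sqt-3 were highest on prep 2. Both together, lowest on prep 1 and highest on prep 3, held for 7 of 10 collagens and for 8.61% of all features. The SD over the preps was 0.57 to 0.99 for the 10 collagens, with a median of 0.72, against a median of 0.35 for all features tested. When the median of the 10 on each array was subtracted, the SD was smaller for all 10 genes, with a median of 0.37, which is in part built in because the median is taken from the same genes.

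**Figure D3:**
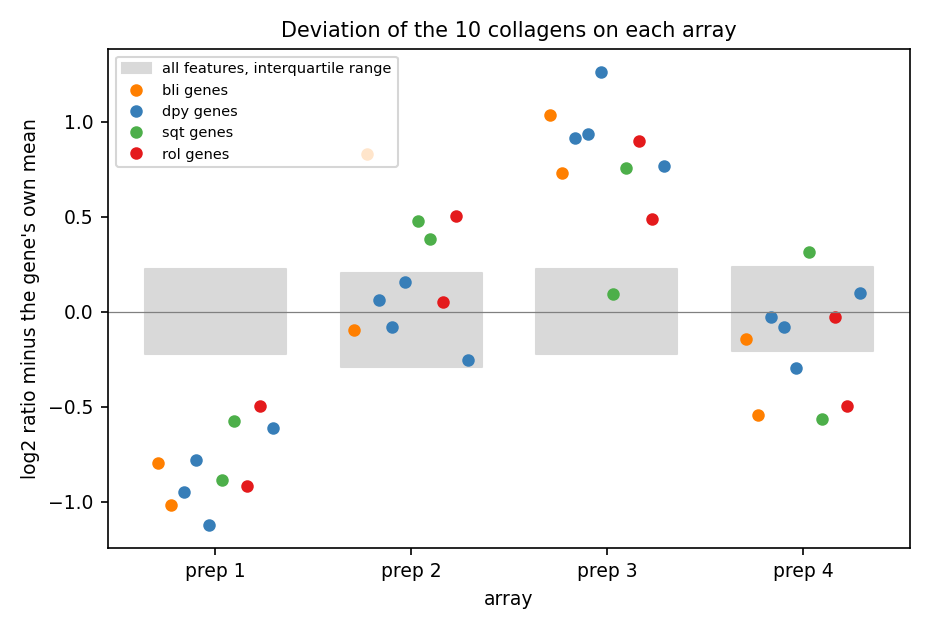
Log2 ratio of each of the 10 collagens minus the gene's own mean over the 4 preps (vertical axis), on each array; points are genes, coloured by name class, and grey boxes are the interquartile range of all features with 4 values. All 10 collagens lie between -1.12 and -0.50 on prep 1, and 9 of 10 lie above the grey box on prep 3, the exception being sqt-3 at 0.10.

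For other cuticle and epidermis genes, the values on each prep are given beside these, and the difference between the groups was not tested. Of 130 numbered collagens with 4 values, 65.4% were lowest on prep 1 and 53.1% highest on prep 3. Both together held for 38.5% of them. Their median spanned a narrower range than that of the 10, with 0.39 on prep 1 and 1.26 on prep 3. The median SD of the numbered collagens over the preps was 0.59. Of the 5 furrow collagens, 60.0% were lowest on prep 1 and 60.0% highest on prep 3. Both together held for 40.0% of these 5, with a median SD of 0.38. Among 16 epidermis markers other than collagens, 37.5% were lowest on prep 1 and 75.0% highest on prep 3. Their medians were -1.23, -1.18, -0.64 and -0.95 on preps 1 to 4, with preps 1 and 2 close together, whereas the medians of the 10 collagens on preps 1 and 2 lay apart. The part of these epidermis markers in the shift was not tested, and with 1 array per prep, prep and array cannot be told apart. Preps 1 and 2 share a prefix in their titles and preps 3 and 4 a date. Pooled over both pairs and all features, the consensus correlation within pairs was -0.058, and the log2 ratios of all features correlated at 0.759 between preps 1 and 2 and at 0.796 between preps 3 and 4.

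Of the 5 furrow collagens tested (dpy-10 was not among them), 4 were lower and 0 higher, with a median of -0.79. Of all features, 20.9% were lower and 17.0% higher. The furrow collagens dpy-7 (-1.62 ± 0.49) and dpy-2 (-1.14 ± 0.38) passed with every prep left out in turn, while dpy-8 and dpy-9 did not, and the count was 2 without prep 1, 2 or 4. The furrow genes and the 10 collagens described here thus gave 0 and 3 higher members; the difference between both groups was not tested. Of the numbered collagens, 65 of 134 were higher and 29 lower (48.5% and 21.6%, against 17.0% and 20.9% of all features). The share of lower genes was thus near that of all features. The numbered collagens had a median of 0.72 and a range of -3.56 to 4.60, wider than that of the 10. Highest of these were col-7 (4.60 ± 1.06), col-139, col-142 and, at 4.22 ± 0.83, col-62. The collagen lon-3, whose loss lengthens the worm, had -0.57, 0.69, 1.57 and 0.29 on preps 1 to 4, also lowest on prep 1 and highest on prep 3, and did not pass (0.49 ± 0.89). Of the basement membrane collagens, which are not part of the cuticle, emb-9 was higher (1.41 ± 0.73), and let-2 (0.84 ± 1.43) and cle-1 (-0.34 ± 0.39) did not pass. Without prep 4, where let-2 was at -1.22 against 1.13 to 2.05 on the other arrays, it passed as well (mean 1.53, adjusted p = 0.00645 in limma).

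**Figure D4:**
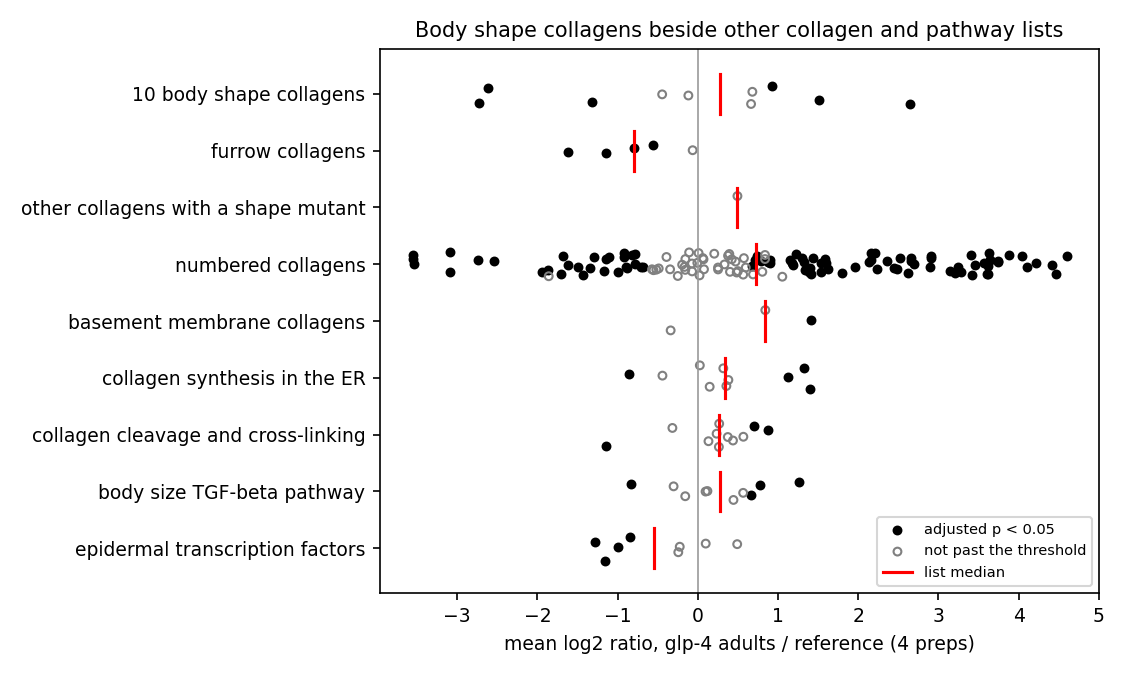
Mean log2 ratio (glp-4 adults over reference, 4 preps, horizontal axis) of every tested gene of the 10 body shape collagens and of 8 collagen and pathway lists; filled points passed an adjusted p of 0.05 in limma, open points did not, and the red line is the median of the list. The 10 collagens spread from -2.72 to 2.64, whereas the lists of enzymes, signalling genes and transcription factors stay between -1.28 and 1.40. The list of other collagens with a shape mutant has 1 tested gene, lon-3, because rol-1, dpy-14 and bli-6 were not tested.

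The genes that build and handle collagen chains had ratios of smaller size than the outer members of the 10. Of 10 genes of collagen synthesis in the endoplasmic reticulum, 3 were higher and 1 lower, with a median of 0.34. Of all features, 37.9% passed in either direction, so these 4 of 10 are near that share. The disulfide isomerase genes pdi-6 (1.40 ± 0.73) and pdi-2 (1.12 ± 0.30) and the prolyl hydroxylase gene phy-3 (1.33 ± 0.74) were higher. PDI-2 is a subunit of the prolyl hydroxylase that stabilises cuticle collagen. Of the genes of its catalytic partners, phy-2 was lower (-0.86 ± 0.52), a call lost without prep 1 or prep 2 (adjusted p = 0.0610 and 0.0694), and dpy-18 did not pass (0.38 ± 0.59), though it did without prep 1 (mean 0.67, adjusted p = 0.0334 in limma).

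Of 11 genes of collagen cleavage and cross-linking, the median was 0.27; 2 were higher, 1 lower and 8 not past the threshold (18.2% and 9.09%, against 17.0% and 20.9% of all features). The higher genes were doxa-1, a maturation factor of the dual oxidase that cross-links the cuticle (0.88 ± 0.32), and duox-2, another dual oxidase gene (0.70 ± 0.31). The dual oxidase gene bli-3, whose mutants have blisters like those of bli-1 and bli-2, had 0.57 ± 0.52 and did not pass, but did without prep 1 (mean 0.81, adjusted p = 0.0216 in limma). Without prep 3 or prep 4, duox-2 did not pass (adjusted p = 0.0593 and 0.0779), which left 1 higher gene. The protease inhibitor gene mlt-11, which acts in moulting, was lower (-1.15 ± 0.39). The protease gene bli-4, needed to process collagens, had -0.32 ± 0.29 and did not pass.

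Signalling and transcription factor genes of the epidermis were compared because they are known to set collagen expression or body size. In the body size TGF-beta pathway, 3 of 10 genes were higher and 1 lower (median 0.28). Among all features, 37.9% passed in either direction, 17.0% of them all higher and 20.9% lower. The higher genes were lon-2, a glypican that restrains the pathway (1.27 ± 0.15), and the Smad genes sma-4 (0.77 ± 0.28) and sma-3 (0.67 ± 0.15), and the receptor gene daf-4 was lower (-0.83 ± 0.23). Leaving out prep 3 removed sma-3 (adjusted p = 0.0518 in limma) and leaving out prep 4 removed sma-4 (0.0511). Of 8 epidermal transcription factor genes, 4 were lower and 0 higher (median -0.55; 20.9% of all features were lower): lin-26 (-1.28 ± 0.43), elt-1 (-1.16 ± 0.30), nhr-23, which drives moulting (-0.99 ± 0.39), and nhr-25 (-0.85 ± 0.41), which did not pass without prep 4 (adjusted p = 0.0553 in limma). The heterochronic factor gene lin-29, which acts in the switch to the adult cuticle, had 0.10 ± 0.31 and did not pass. The list of epidermis markers, which holds 5 of these factor genes, had 12 of 16 lower and 0 higher, with a median of -0.94, and was led by wrt-10 (-1.83 ± 0.57), noah-1 (-1.56 ± 0.57), noah-2 (-1.46 ± 0.47) and sym-1 (-1.42 ± 0.47). The count of lower markers was 10 without prep 1 or prep 2 and 9 without prep 4. Both bli genes and dpy-4 were higher and most of these epidermis markers lower, while the adult epidermis markers col-7 and col-19 were higher. The part of either kind of marker in the values of the 10 collagens was not tested.

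In the RefSeq annotation of assembly WBcel235, 4 of the 10 collagens overlap another gene. For dpy-4, bli-1 and bli-2, 1 overlapping gene each was measured by a probe of its own; the piRNA genes that also overlap dpy-4 had no value here. The gene that overlaps bli-2 is zyg-1, a kinase gene of centriole duplication, which had -0.97, -2.01, -1.18 and -0.87 on preps 1 to 4 (lower, adjusted p = 0.00449 in limma). The gene dph-2, which overlaps bli-1, had a mean of -0.71 ± 0.71 and did not pass, and atln-2, the measured gene that overlaps dpy-4, was lower (-0.82 ± 0.58, adjusted p = 0.0306). All 3 measured partners had means below 0 where the collagen had one above 0. A non-coding RNA gene, F23H12.13, overlaps sqt-3 and had no value here. Whether a probe spans the shared stretch, and which strand it reports, is not stated in the data used here.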

How the data were processed

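The deposited values are log2 ratios of both channels of spotted arrays, 1 column per array over 21632 spots. That the scale is log2 was read from the values: all values below -2 were the log2 of a whole multiple of 0.001, within 1e-06 of the ratio. The sources used here give no scanner, background correction, normalization, dyes or genome build. Signal over background is unknown, and the 4 arrays limit the precision. Spots without a value numbered 118 to 547 per array.

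Probes were named by the platform annotation (16450 with 1 gene, 247 with several, 4935 with none listed), and 16360 matched RefSeq by gene number, which changed 0 symbols. Probes of a gene were averaged, giving 20140 features. Limma 3.58.1 (R 4.3.3; intercept, eBayes) tested the mean ratio against 0 on both sides, for features on at least 3 arrays, with Benjamini-Hochberg adjustment. The reference leaves out the spread of wild-type samples. The fit was tested on simulated data. Tables used Python 3.11.15 with pandas 2.3.3, plots matplotlib 3.10.9.

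Members and lists were chosen with earlier results of these data known. All 10 collagens are named; from each list at most 4 genes past the threshold farthest from 0, and the 3 genes most like the highest and the lowest collagen, plus genes named after their values were seen: lon-3, let-2, cle-1, dpy-18, dpy-31, bli-3, bli-4 and lin-29, and the genes that overlap a collagen. Of the marker lists, counts are given. The 4 epidermis markers past the threshold farthest from 0 and both adult epidermis markers are also named. Errors after ± are SDs over preps. No sequence is shown because no sequence table was used here.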

Additional observations from a re-analysis of the deposited data

How the results depend on the processing

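The alternatives were centring, scaling, the number of arrays required, single probes, a robust prior, array weights, a block for arrays that share a title date or prefix, either pair of arrays alone, and leaving out each prep. The calls of bli-2, dpy-17 and rol-8 held in all 14. Scaling all arrays to 1 SD ended the call of dpy-4 (0.94, adjusted p = 0.0552 in limma). From preps 1 and 2 alone, 933 features were higher and 1856 lower, 1 collagen was higher, and dpy-4 (0.48) and bli-1 (1.42) did not pass. From preps 3 and 4 alone, 2050 were higher and 2528 lower, rol-6 did not pass (-0.89) and sqt-3 turned to 0.087. These fits have fewer arrays. With 1 prep left out, 2084 (without prep 4) to 2794 features were higher and 3077 to 3728 lower, 2 to 4 collagens were higher and 3 lower, dpy-4 ranged from 0.61 to 1.24, dpy-13 from 0.37 to 0.94 and sqt-3 from -0.28 to 0.18, above 0 only without prep 1. The cause was not tested. Of 59 sets of 4 values searched for a single array far from the rest, 0 had one. The search compared the gap between an end value and its neighbour with the range. With 4 values it marks only a gap that fills most of the range, and let-2 was not among the sets. Samples of different groups could not be compared in pairs because the 4 preps form a single group.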
